A study of Mus musculus with 9 samples.

Results

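The laminins, the nidogens, perlecan and agrin are secreted ligands of the basement membrane, and the integrins and dystroglycan are the cell surface receptors that bind them and other matrix proteins. The set was formed from gene symbols alone. It holds the laminin alpha, beta and gamma chains, both nidogens and every integrin alpha and beta subunit matched by its symbol, with Hspg2 (perlecan), Agrn (agrin) and Dag1 (dystroglycan) added. All 42 genes were present in the table of 27179 genes, 15 of them ligands and 27 receptors. Of these, 36 passed the filter on low counts and were tested (14 ligands and 22 receptors). The 6 others, Lamb3, Itgad, Itgam, Itgax, Itgb6 and Itgb7, are given by their counts.

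The samples were pneumospheres, spheres grown from the lungs of C57/B6 mouse embryos at E11.5, with 3 libraries on each of day 3, day 7 and day 10 of culture. All 3 groups share strain, tissue of origin and medium, and no treatment is labelled for any of them. Lung cells were dissociated with trypsin, held briefly on plastic so that mesenchymal cells could attach, and the cells left in suspension were kept on low-attachment plates at low oxygen in a medium with bFGF, EGF and heparin. Spheres were broken up and replated on days 3 and 7, so the day 10 cells had gone through both passages, and day and number of passages cannot be told apart. The comparisons ask how transcripts for matrix ligands and for matrix receptors differ between days of culture.

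A laminin is a trimer of an alpha, a beta and a gamma chain, and it is secreted only once the chains have joined. Laminins polymerise on the cell surface, nidogens bind the laminin gamma chain and type IV collagen, and perlecan and agrin carry heparan sulfate chains that tether growth factors. An integrin is a pair of an alpha and a beta subunit, in which the alpha subunit sets most of the ligand preference, while dystroglycan binds laminins, perlecan and agrin through sugars on its outer part and dystrophin or utrophin inside the cell. In the embryonic lung such a sheet underlies the branching epithelium, and cells on both of its sides contribute to it.

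Library totals lay between 20716878 and 30466712 counts, and a count of 0 allows up to 3 counts, or 0.0987 to 0.149 TMM-normalised CPM (counts relative to the library's scaled total, the unit of every CPM value here), with counting error only in view. The 42 genes took 0.846 to 0.922% of counts on day 3, 1.12 to 1.34% on day 7 and 1.39 to 1.77% on day 10. Although the protocol aims at epithelium, summed epithelial markers came to 1.25 to 1.81 CPM (day 3), 0.624 to 1.41 (day 7) and 1.04 to 1.66 (day 10) over 8 genes, and Nkx2-1, the lung epithelial transcription factor, had no count in any library. On day 10, 5 of the 8 (Cdh1, Nkx2-1, Krt8, Krt5 and Esrp1) had no count. Epcam, an epithelial adhesion molecule, fell to 0.113 ± 0.0395 CPM on day 10, against 0.599 ± 0.207 CPM on day 3 (mean ± SD, n = 3 each; log2 change -2.39, SE 0.57, edgeR adjusted p = 0.00486). Cldn7, a tight junction claudin, rose to 1.16 ± 0.374 CPM on day 10, against 0.365 ± 0.170 CPM on day 3 (log2 change 1.66, SE 0.42, edgeR adjusted p = 0.00677). Summed mesenchymal markers (7 genes, none at 0) came to 7144 to 7501 CPM (day 3), 16557 to 19673 (day 7) and 23336 to 26494 (day 10), and smooth muscle markers (5 genes, none at 0) to 152 to 168 CPM (day 3), 358 to 503 (day 7) and 315 to 707 (day 10). Most of the mesenchymal sum was the collagen genes Col1a1 and Col1a2. Vim averaged 661, 723 and 817 CPM on days 3, 7 and 10. Against day 3, Vim was called higher on day 10 alone, and the other mesenchymal markers on both days. Most of the smooth muscle sum was Acta2, at 147, 295 and 355 CPM, with Tagln next. Actg2 was highest on day 7 (2.08, 10.1 and 6.02 CPM), and Cnn1 was not called (0.567, 0.460 and 0.409 CPM). Endothelial markers (8 genes) came to 180.5 to 219 CPM (day 3), 246 to 340.4 (day 7) and 127 to 141 (day 10). Most of this sum was Emcn and Kdr. Emcn averaged 111, 184 and 109 CPM on days 3, 7 and 10, and Kdr 59.2, 91.7 and 12.8 CPM. Erg averaged 7.41, 2.02 and 0.965 CPM and Tek 6.69, 3.19 and 2.22 CPM, both called lower on days 7 and 10 than on day 3. Against day 3, Emcn was called higher on day 7 alone and Kdr lower on day 10 alone. Pecam1, Cdh5, Cldn5 and Tie1 were not called on either day. Mesothelial markers (5 genes) came to 60.4 to 80.4 CPM (day 3), 32.5 to 37.9 (day 7) and 14.6 to 26.0 (day 10). Nearly all of this was Wt1, which averaged 64.3, 35.8 and 20.0 CPM. Lrrn4 averaged 3.14, 0.197 and 0.0534 CPM, and Upk3b, Msln and Krt19 at most 0.0985 CPM on any day. Schwann cell and neural crest markers (6 genes) came to 27.5 to 29.5 CPM (day 3), 7.61 to 9.34 (day 7) and 8.68 to 10.5 (day 10). Red cell markers came to 982 to 1171 CPM (day 3), 4.21 to 6.13 (day 7) and 0.423 to 0.920 (day 10) over the 6 of 7 genes measured. In these bulk libraries, fewer cells of a type and less RNA per cell cannot be told apart, and the part of these shifts in the results was not tested. Day 7 replicate 2 and day 10 replicate 3 lay at opposite ends of the second principal component (-36.2 and 36.1, against -16.5 to 9.51 for the other 7 libraries). Day 3 replicate 2 differed from its partners with a chi-square per degree of freedom of 109 and 127, against 8.05 between those partners. Nothing in the labels ties replicates to different cultures or litters, and p-values therefore measure the spread between these samples, which may be technical.

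Between day 3 and day 10 a larger share of the tested ligands than of the tested receptors rose, a difference that was not itself tested. Lamc3, Lama2, Lama3, Lamb2, Nid1, Lamc1, Hspg2 and Lamb1 rose, and Agrn alone among the ligands fell. That is 8 of 14 tested ligands higher (57.1%) and 1 lower (7.14%) at an edgeR adjusted p under 0.05, against 29.5% higher and 27.2% lower among all 14940 genes tested. Of the receptors, 9 of 22 rose (40.9%), namely Itga10, Itgb3, Itga1, Itgal, Itga7, Itga2b, Itgav, Dag1 and Itgb1, and 3 fell (13.6%), namely Itgae, Itgb2 and Itga4. The median log2 change, day 10 over day 3, was 0.96 over the tested ligands, 0.27 over the tested receptors and 0.002 over all tested genes. At least 2-fold rises were seen for 7 ligands and 6 receptors and such falls for 3 receptors (Itgae, Itgb2 and Itga4), while the fall of Agrn was smaller, where 12.7% of all tested genes rose and 9.10% fell by that much. Leaving out both day 3 replicate 2 and day 10 replicate 3 gave 8 ligands higher and 2 lower (Agrn and Lama4). It also gave 7 receptors higher, without Itgal and Itga7, and 1 lower (Itga4). Of the 15087 genes tested in that fit, 3796 were called higher and 3509 lower.

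**Figure D1:**
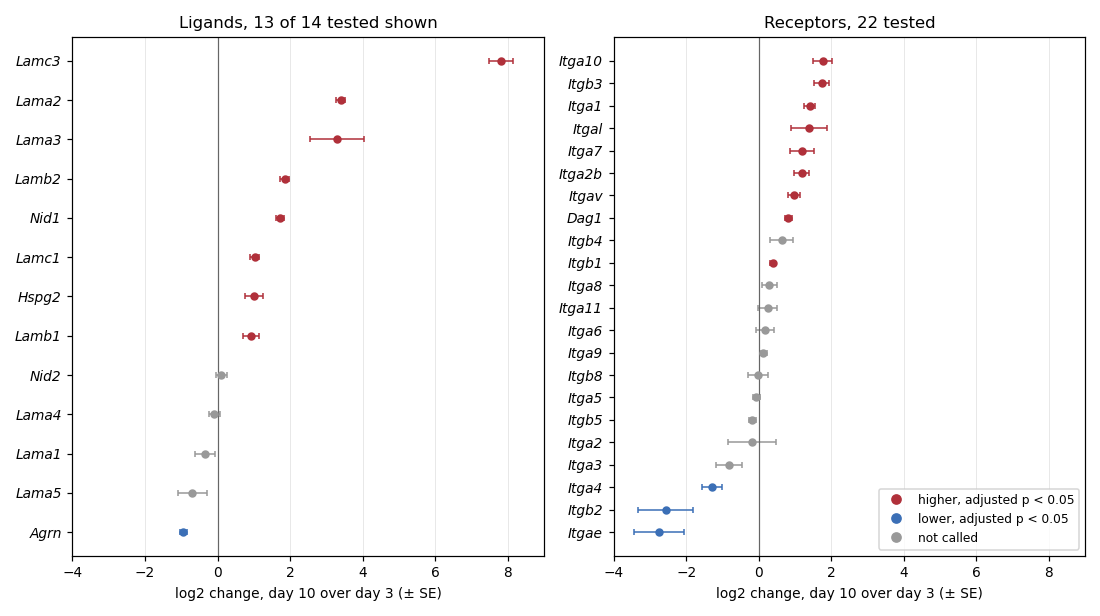
Log2 change, day 10 over day 3, for 13 of the 14 tested ligands (left) and the 22 tested receptors (right); points are edgeR estimates, bars are ± SE, and colour gives the call at an adjusted p under 0.05. Lamc3 lies far to the right of the other ligands at 7.82, Agrn is the 1 ligand called lower, and the receptors called lower are Itga4, Itgb2 and Itgae.

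Promoter sequence is shown for the ligands that rose at least 2-fold and have a RefSeq window here, Lama2, Lamb2, Nid1 and Hspg2, so that genes with a shared rise can be set side by side. Each line holds the 250 bases before a transcript start listed by RefSeq in GRCm38.p6, 5′ to 3′ on the strand of the gene. Of these bases, 249 in Lama2, 52 in Hspg2 and 15 in Lamb2 lie inside the gene span given below, which begins further upstream than the start used for the window. Capitals mark matches, on either strand, to 6 motifs: the GC box GGGCGG, the TATA box TATAAA, the AP-1 site TGANTCA, the SMAD box CAGACA, the CCAAT box CCAAT and the TEAD site GGAATG. No 2 of the marked matches overlap.
Lama2, chr10:27616943-27617192, minus strand: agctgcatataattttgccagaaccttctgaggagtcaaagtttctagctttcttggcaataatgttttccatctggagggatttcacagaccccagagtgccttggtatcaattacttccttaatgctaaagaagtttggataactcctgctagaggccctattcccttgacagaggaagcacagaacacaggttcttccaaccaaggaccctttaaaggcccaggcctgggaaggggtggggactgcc
Lamb2, chr9:108479612-108479861, plus strand: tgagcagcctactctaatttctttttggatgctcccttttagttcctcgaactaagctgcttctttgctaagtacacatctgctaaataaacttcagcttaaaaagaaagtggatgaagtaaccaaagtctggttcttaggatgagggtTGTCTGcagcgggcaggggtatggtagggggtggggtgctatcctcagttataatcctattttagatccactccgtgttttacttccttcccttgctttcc
Nid1, chr13:13437352-13437601, plus strand: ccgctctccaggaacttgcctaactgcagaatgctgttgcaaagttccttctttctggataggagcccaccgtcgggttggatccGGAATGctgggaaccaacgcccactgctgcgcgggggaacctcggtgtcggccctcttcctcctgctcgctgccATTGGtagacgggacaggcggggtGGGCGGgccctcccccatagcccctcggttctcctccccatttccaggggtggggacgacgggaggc
Hspg2, chr4:137468553-137468802, plus strand: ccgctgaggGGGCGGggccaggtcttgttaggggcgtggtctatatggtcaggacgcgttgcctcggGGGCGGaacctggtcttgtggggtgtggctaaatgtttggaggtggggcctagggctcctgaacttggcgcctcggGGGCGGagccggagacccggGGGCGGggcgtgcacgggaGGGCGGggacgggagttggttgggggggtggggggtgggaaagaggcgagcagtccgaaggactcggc
The 4 windows differ in composition, from 43.6% GC in Lamb2 and 47.2% in Lama2 to 64.4% in Nid1 and 70.0% in Hspg2, against a median of 52.4% over all 32851 windows. Hspg2 holds 5 GC boxes and Nid1 holds a GC box, a CCAAT box and a TEAD site. Lamb2 holds a single SMAD box and Lama2 none of the 6 motifs, so no motif is common to the 4. Over the 32 windows of the 27 members that have any (8 ligands and 19 receptors), 46.9% hold a GC box, against 32.7% of all windows. The SMAD box was in 21.9% of member windows and 17.1% of all windows, CCAAT in 21.9% and 33.8%, and the TEAD site in 12.5% and 12.6%. The AP-1 site was in 1 member window (3.12%) and in 6.75% of all windows, and no member window held TATAAA, which 12.4% of all windows do. These matches describe letters in the windows and no binding.

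The laminin alpha chain transcripts changed in make-up. Lama2, the chain of muscle and Schwann cell laminins (Entrez 16773, chromosome 10, 26981285 to 27617191, GRCm38), had 110.4, 114 and 110.1 CPM on day 3, 674, 561 and 711 on day 7 and 1101, 1084 and 1343 on day 10. The 3 days did not overlap, and each later day stood above the earlier ones in every library (day 10 over day 3: log2 change 3.40, SE 0.12, edgeR adjusted p = 7.80e-08). Summed Schwann cell and neural crest markers were lower on days 7 and 10 than on day 3, while smooth muscle and mesenchymal markers were higher. Lama4, the alpha chain of vessel walls and mesenchyme (Entrez 16775, chromosome 10, 38965515 to 39110188), had 647, 661 and 622 CPM on day 3, 687, 606 and 682 on day 7 and 491, 541 and 782 on day 10. The days overlapped, with day 10 replicate 3 the highest of the 9 libraries, and no change was called (log2 change -0.09, SE 0.15, edgeR adjusted p = 0.637). Without day 10 replicate 3, Lama4 was called lower (-0.31, adjusted p = 0.0121), and without day 10 replicate 1 the estimate was 0.04.

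The other alpha chains were low. Lama1, a chain of early embryonic basement membranes, averaged 9.12 ± 1.01 CPM (day 3), 6.27 ± 2.09 CPM (day 7) and 7.14 ± 2.46 CPM (day 10) (SD, n = 3 each), with overlapping days and no call (-0.35 ± 0.28 SE, adjusted p = 0.304). Lama5, the main alpha chain of epithelial basement membranes, averaged 3.81 ± 0.391 CPM (day 3), 2.65 ± 0.941 CPM (day 7) and 2.39 ± 1.42 CPM (day 10). It was not called for day 10 over day 3 (-0.69 ± 0.40 SE, adjusted p = 0.164), but was called lower without day 10 replicate 1 (-1.23, adjusted p = 0.0134). Lama3, the alpha chain of the laminin that anchors epithelia, had 0.243, 0.237 and 0.176 CPM on day 3, 1.18, 1.32 and 2.03 on day 7 and 4.51, 0.560 and 1.69 on day 10. It rose (log2 change 3.30, SE 0.75, edgeR adjusted p = 0.00417) at a level close to the floor, with 16 counts in all on day 3 and 153 on day 10, and the 3 day 10 libraries were far apart. Without day 10 replicate 1 the log2 change was 2.35.

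Per kilobase of exon, the scale on which genes may be set against each other, Lama2 made up 11.1 ± 0.172% on day 3, 41.6 ± 1.49% on day 7 and 58.7 ± 3.04% on day 10 of the 5 alpha chains together (SD, n = 3 each). Lama4 made up 86.8 ± 0.337% on day 3, 57.3 ± 1.37% on day 7 and 40.3 ± 3.31% on day 10. On this scale, Lama2 was thus below Lama4 in every library of days 3 and 7 and above it in every library of day 10. Without division by length, Lama2 was above Lama4 in day 7 replicate 3 (711 and 682 CPM) and below it in day 7 replicates 1 and 2. Shares with another measure of length were not computed. The summed alpha chain level was 61.4 ± 1.71 on day 3, 95.3 ± 8.38 on day 7 and 123 ± 21.4 on day 10 CPM per kilobase.

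**Figure D2:**
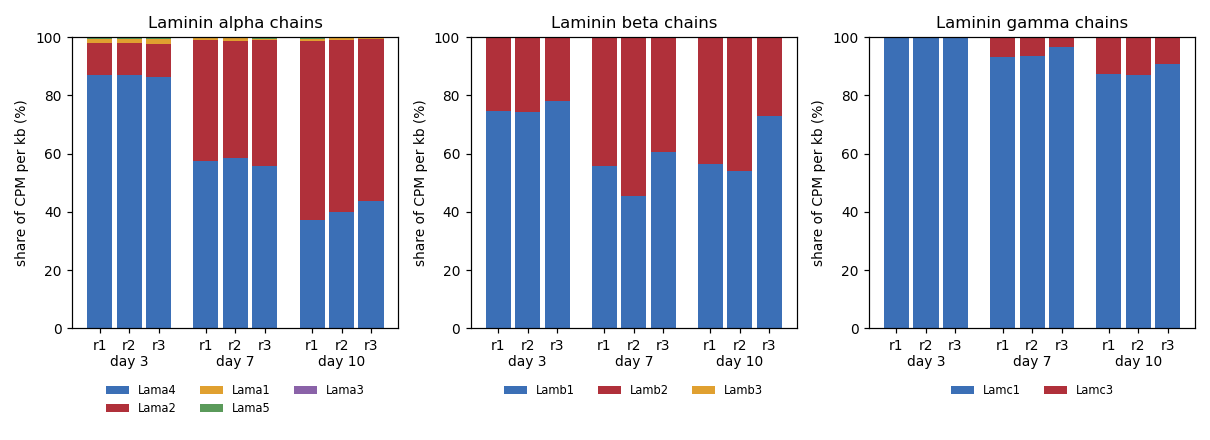
Share of each chain in the summed CPM per kilobase of the laminin alpha (left), beta (middle) and gamma (right) chains, in % on the vertical axis, with 1 bar per library and days 3, 7 and 10 from left to right. Lama2 averages 11.1% of alpha chains on day 3 and 58.7% on day 10, and Lamc3 reaches 11.6% of gamma chains on day 10.

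Both main beta chains rose. Lamb1, the beta chain of most embryonic laminins (Entrez 16777, chromosome 12, 31265146 to 31329644), had 826, 805 and 878 CPM on day 3, 1180.0, 817 and 1233 on day 7 and 1328, 1269.7 and 2147 on day 10. All day 10 libraries were above all day 3 libraries, with day 10 replicate 3 well above its partners (log2 change 0.92, SE 0.21, edgeR adjusted p = 0.00501). Lamb2, the beta chain of synaptic and kidney filter laminins (Entrez 16779, chromosome 9, 108479847 to 108490530), had 171, 172 and 151 CPM on day 3, 572, 600.1 and 489 on day 7 and 624, 664 and 487 on day 10. Days 7 and 10 overlapped and both lay wholly above day 3 (day 10 over day 3: log2 change 1.85, SE 0.13, edgeR adjusted p = 2.52e-06). Within the beta chains, Lamb2 made up 24.3 ± 2.09% on day 3, 46.0 ± 7.77% on day 7 and 38.8 ± 10.3% on day 10 per kilobase, and its lowest day 10 share, 27.0%, was in the library with the highest Lamb1. Lamb3, the epithelial beta chain, was not tested, with 3 counts on day 3, 16 on day 7 and 20 on day 10 in all.

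Of the gamma chains, Lamc3 showed the largest change among the 36 tested genes. Lamc3, a gamma chain known from retina and brain (Entrez 23928, chromosome 2, 31887281 to 31949083), had 0.364, 0.591 and 0.837 CPM on day 3, 62.4, 49.7 and 31.5 on day 7 and 135, 147 and 124 on day 10. The days did not overlap, and the mean was 226 times as high on day 10 as on day 3 (log2 change 7.82, SE 0.34, edgeR adjusted p = 2.75e-07). Day 3 held 43 counts in all 3 libraries, against 9910 on day 10, so the size of the fold rests on a low base: without day 3 replicate 3 the log2 change was 8.13. Lamc1, the gamma chain shared by most laminins (Entrez 226519, chromosome 1, 153218922 to 153332786), had 706, 723 and 684 CPM on day 3, 1164, 1012 and 1233 on day 7 and 1277, 1318 and 1699 on day 10. Its days did not overlap either (day 10 over day 3: log2 change 1.02, SE 0.12, edgeR adjusted p = 6.80e-05). For Lamc1 the step from day 7 to day 10 was not called (log2 change 0.33, edgeR adjusted p = 0.115). Lamc3 made up 0.116 ± 0.0481% on day 3, 5.46 ± 1.85% on day 7 and 11.6 ± 2.21% on day 10 of the gamma chains per kilobase, so Lamc1 remained the main gamma chain on each day.

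Nid1 rose, and no change was called for Nid2. Nid1 (Entrez 18073, chromosome 13, 13437602 to 13512275) had 779.9, 819 and 871 CPM on day 3, 1902, 1764 and 1993 on day 7 and 2416, 2695 and 3017 on day 10. Every later day lay wholly above the earlier ones (log2 change 1.72, SE 0.10, edgeR adjusted p = 1.05e-06). Nid2 (Entrez 18074, chromosome 14, 19751257 to 19811787), which binds the same partners, had 811, 894 and 741 CPM on day 3, 782, 594 and 707 on day 7 and 713, 829.8 and 1095 on day 10. Its days overlapped, day 10 replicate 3 was the highest library, and no change was called (log2 change 0.11, SE 0.16, edgeR adjusted p = 0.581). The gene model of Nid2 overlaps that of Rtraf, which averaged 71.8 CPM on day 10 and 78.5 CPM on day 3. Nid1 made up 43.0 ± 3.26% on day 3, 67.0 ± 2.30% on day 7 and 69.9 ± 2.32% on day 10 of both nidogens per kilobase.

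Perlecan and agrin moved in opposite directions. Hspg2 (Entrez 15530, chromosome 4, 137468751 to 137570630) had 1375, 1331 and 1337 CPM on day 3, 2308, 1573 and 2516 on day 7 and 2109, 2174 and 3842 on day 10. The day 3 libraries were close together and below all others, while day 10 replicate 3 stood far above its partners (log2 change 1.01, SE 0.24, edgeR adjusted p = 0.00590). Without that library the log2 change was 0.67 (adjusted p = 0.00552). Agrn, which clusters acetylcholine receptors at the synapse and binds dystroglycan (Entrez 11603, chromosome 4, 156165290 to 156197533), had 499, 508 and 473 CPM on day 3, 286, 307 and 351 on day 7 and 252, 278 and 239.8 on day 10. It fell in steps that did not overlap (day 10 over day 3: log2 change -0.94, SE 0.09, edgeR adjusted p = 2.21e-05). The step from day 7 to day 10 was not called (log2 change -0.29, edgeR adjusted p = 0.0788). Hspg2 made up 63.9 ± 0.895% on day 3, 81.1 ± 3.70% on day 7 and 86.4 ± 4.21% on day 10 of the 2 proteoglycans per kilobase. Summed mesenchymal and smooth muscle markers, given above, were higher on days 7 and 10 than on day 3, as were most ligands that rose. The part of these markers in the rises was not tested.

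**Figure D3:**
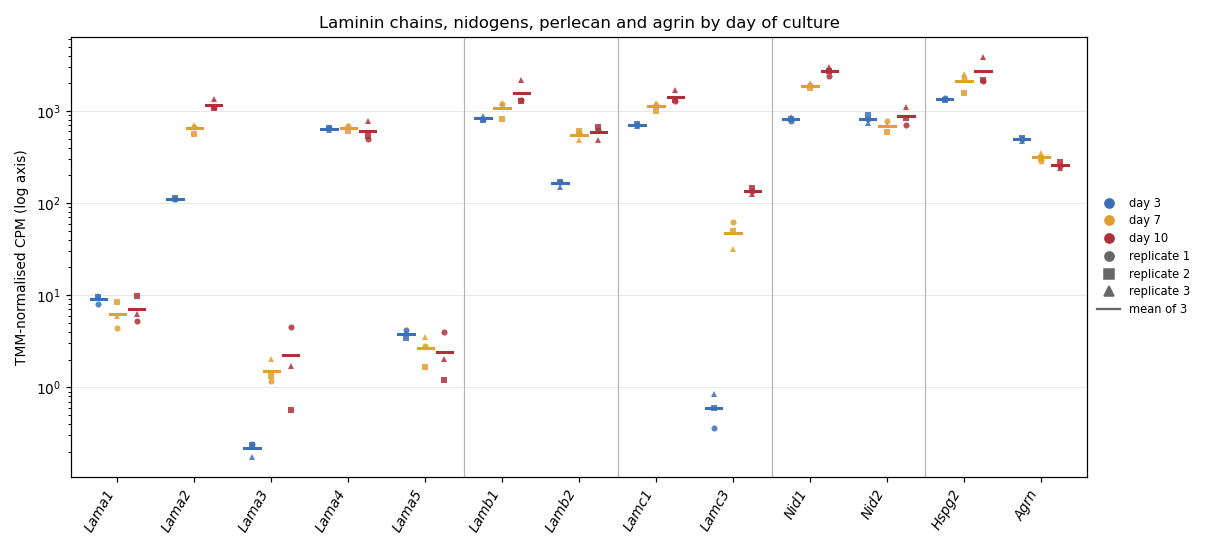
TMM-normalised CPM (log axis) of the 13 ligands with a day mean of at least 1 CPM; colours give the day, symbols the replicate and bars the mean of 3 libraries. Lamc3 and Lama2 separate the 3 days, Agrn runs downward, and Lama4 and Nid2 overlap across days.

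Ranked per kilobase on day 3, Nid2 led at 158 ± 14.8 CPM per kilobase, followed by Nid1 at 119 ± 6.60, Hspg2 at 94.2 ± 1.69, Lamc1 at 85.2 ± 2.38, Lamb1 at 84.3 ± 3.78, Lama4 at 53.3 ± 1.64 and Agrn at 53.2 ± 1.97. The libraries of Lamc1 and Lamb1 overlapped, as did those of Lama4 and Agrn. On day 10 Nid1 led at 390.2 ± 43.3 CPM per kilobase, clear of Hspg2 at 189 ± 68.7. Hspg2, Lamc1, Nid2 and Lamb1 followed with each overlapping the next, and then came Lamb2 at 97.3 ± 15.3, which overlapped Lama2 at 72.0 ± 8.85. Agrn at 27.7 ± 2.13 and Lamc3 at 22.2 ± 1.83 CPM per kilobase came after Lama4, above Lama1, Lama5, Lama3 and Lamb3, all under 1.

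Among the receptors, dystroglycan rose modestly. Dag1 (Entrez 13138, chromosome 9, 108204861 to 108263977) had 166, 179 and 188 CPM on day 3, 262, 249 and 282 on day 7 and 284, 299 and 359 on day 10. The 3 days did not overlap and each later day was higher (day 10 over day 3: log2 change 0.82, SE 0.10, edgeR adjusted p = 7.82e-05). The step from day 7 to day 10 was not called (log2 change 0.25, edgeR adjusted p = 0.148).

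Itgb1, the beta subunit shared by most matrix-binding integrins, was the highest receptor on every day and rose slightly. Itgb1 (Entrez 16412, chromosome 8, 128685654 to 128733579) had 1111, 1116 and 1114 CPM on day 3, 1391, 1479 and 1434 on day 7 and 1447, 1457 and 1457 on day 10. All libraries of days 7 and 10 lay above those of day 3, and days 7 and 10 overlapped (log2 change 0.38, SE 0.07, edgeR adjusted p = 0.000925). Itgb1 made up 85.1 ± 1.05% on day 3, 87.7 ± 1.48% on day 7 and 89.0 ± 0.141% on day 10 of the 8 integrin beta subunits per kilobase. Itgb5, a partner of Itgav (Entrez 16419, chromosome 16, 33829665 to 33949338), had 179.9, 152 and 158 CPM on day 3, 189, 161 and 150.5 on day 7 and 146, 144 and 143 on day 10. Its day 10 libraries were all below those of day 3, by little, and no change was called (log2 change -0.18, SE 0.10, edgeR adjusted p = 0.130). With library size alone it was called lower (-0.27, adjusted p = 0.0497). Itgb3, which pairs with Itgav or with the platelet subunit Itga2b (Entrez 16416, chromosome 11, 104608000 to 104670476), had 4.21, 7.02 and 4.23 CPM on day 3, 8.35, 7.16 and 8.93 on day 7 and 15.9, 18.4 and 17.2 on day 10. Its days did not overlap, although day 7 exceeded day 3 by little (log2 change 1.73, SE 0.20, edgeR adjusted p = 5.67e-05).

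The remaining beta subunits of solid tissue were low. Itgb8, an alpha V partner that activates TGF-beta, averaged 4.03 ± 0.440 CPM (day 3), 3.74 ± 0.902 CPM (day 7) and 3.97 ± 1.33 CPM (day 10) and was not called (-0.02 ± 0.27 SE, adjusted p = 0.954). Itgb4, the hemidesmosome subunit, averaged 1.29 ± 0.324 CPM (day 3), 2.00 ± 0.467 CPM (day 7) and 2.03 ± 0.618 CPM (day 10) and was not called (0.64 ± 0.31 SE, adjusted p = 0.107), although it was without day 10 replicate 2 (0.86, adjusted p = 0.0367). Its gene model overlaps that of Galk1, which averaged 59.4 CPM on day 10 and 81.1 CPM on day 3. Itgb6, an epithelial subunit, had 1 count on day 3, 1 on day 7 and 0 on day 10 and was not tested.

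Of the 3 alpha subunits classed here as laminin-binding, Itga7 alone was called higher, at a low level. The class was set by symbol, and laminin binding by the other alpha subunits was not considered. Itga6, the most abundant of the 3 (Entrez 16403, chromosome 2, 71786886 to 71858427), had 133, 126 and 138 CPM on day 3, 125, 175 and 172 on day 7 and 217, 130.0 and 99.3 on day 10. The days overlapped and the day 10 libraries were spread widely (log2 change 0.17, SE 0.25, edgeR adjusted p = 0.580). Without day 10 replicate 1 the estimate was -0.20. Itga6 made up 96.9 ± 0.426% on day 3, 97.9 ± 0.528% on day 7 and 97.8 ± 1.14% on day 10 of Itga3, Itga6 and Itga7 together per kilobase. Itga3, an epithelial laminin receptor subunit, averaged 2.37 ± 0.335 CPM (day 3), 1.55 ± 0.357 CPM (day 7) and 1.35 ± 0.619 CPM (day 10). Its log2 change was -0.82 ± 0.35 SE (adjusted p = 0.0662), and it was called lower with library size alone (-0.91, adjusted p = 0.0455) and without day 10 replicate 1 (-1.05, adjusted p = 0.0405). Itga7, a muscle laminin receptor subunit, averaged 0.369 ± 0.0628 CPM (day 3), 0.757 ± 0.242 CPM (day 7) and 0.849 ± 0.0900 CPM (day 10) and was called higher (log2 change 1.19, SE 0.33, edgeR adjusted p = 0.0110). That call was lost without both day 3 replicate 2 and day 10 replicate 3 (1.23, adjusted p = 0.0537).

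Of the alpha subunits classed here as collagen-binding, 2 of 4 rose. Itga1, which prefers type IV collagen (Entrez 109700, chromosome 13, 114958079 to 115101964), had 36.9, 40.8 and 33.4 CPM on day 3, 97.8, 92.5 and 83.6 on day 7 and 77.5, 96.5 and 119.7 on day 10. Days 7 and 10 overlapped and both were above day 3 (log2 change 1.40, SE 0.15, edgeR adjusted p = 3.69e-05). Its gene model overlaps that of Pelo, which averaged 11.8 CPM on day 10 and 12.9 CPM on day 3. Itga10, known from cartilage (Entrez 213119, chromosome 3, 96645584 to 96664519), had 9.18, 9.15 and 6.26 CPM on day 3, 36.4, 42.7 and 34.3 on day 7 and 27.7, 37.8 and 18.0 on day 10. It was highest on day 7, with day 10 overlapping day 7 and above day 3 (log2 change 1.76, SE 0.26, edgeR adjusted p = 0.000347). Itga11, a fibroblast receptor for fibrillar collagen, averaged 2.52 ± 0.613 CPM (day 3), 3.02 ± 0.628 CPM (day 7) and 2.97 ± 0.818 CPM (day 10), and Itga2, a platelet and epithelial collagen receptor subunit, averaged 0.465 ± 0.294 CPM (day 3), 0.592 ± 0.318 CPM (day 7) and 0.395 ± 0.272 CPM (day 10). Both overlapped across days and were not called (adjusted p = 0.456 and 0.828).

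The subunits that recognise the RGD tripeptide of fibronectin and vitronectin include Itga5, Itga8 and Itgav, the most abundant alpha subunits per kilobase on each day. Itga5, the fibronectin receptor (Entrez 16402, chromosome 15, 103344286 to 103366791), had 428, 427 and 438 CPM on day 3, 394, 445 and 415 on day 7 and 439, 447 and 350.5 on day 10. The days overlapped, and no change was called (log2 change -0.06, SE 0.10, edgeR adjusted p = 0.602). Itga8, a receptor for nephronectin in organ mesenchyme (Entrez 241226, chromosome 2, 12106632 to 12301985), had 255, 269.7 and 289 CPM on day 3, 320.2, 214 and 245 on day 7 and 351, 233 and 415 on day 10. These days overlapped too (log2 change 0.30, SE 0.20, edgeR adjusted p = 0.242), but without day 10 replicate 2 it was called higher (0.50, adjusted p = 0.0242). Itgav, the vitronectin receptor (Entrez 16410, chromosome 2, 83722303 to 83806917), had 264, 299 and 228 CPM on day 3, 461, 428 and 396 on day 7 and 646, 494 and 418 on day 10. Day 10 overlapped day 7, and both were above day 3 (log2 change 0.98, SE 0.16, edgeR adjusted p = 0.000494).

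Itga2b, the platelet fibrinogen receptor subunit (Entrez 16399, chromosome 11, 102453297 to 102469883), had 5.18, 6.86 and 6.21 CPM on day 3, 9.08, 6.54 and 6.98 on day 7 and 17.4, 12.5 and 11.7 on day 10. Day 10 was above both earlier days, which overlapped (log2 change 1.18, SE 0.20, edgeR adjusted p = 0.000569). Summed megakaryocyte and platelet markers (8 genes) came to 9.74 to 12.4 CPM (day 3), 15.7 to 22.7 (day 7) and 12.2 to 27.4 (day 10). On days 7 and 10 most of that sum was Gp1bb, which averaged 3.54 ± 0.613 CPM (day 3), 14.2 ± 1.88 (day 7) and 16.9 ± 7.19 (day 10). Ppbp, which marks platelets, averaged 1.54 ± 0.760 CPM (day 3), 0.216 ± 0.0976 (day 7) and 0.0816 ± 0.0683 (day 10), and Pf4 averaged 3.82 ± 0.232, 4.10 ± 1.83 and 1.71 ± 1.09 CPM. Gp6 had no count on days 7 and 10, and Treml1 none on day 7.

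Per kilobase, Itga5 made up 48.6 ± 1.16% on day 3, 42.5 ± 2.79% on day 7 and 38.3 ± 4.35% on day 10 of all alpha subunits, and Itgav made up 13.6 ± 1.72% on day 3, 20.0 ± 1.09% on day 7 and 22.0 ± 2.64% on day 10. Itga8 held 20.5%, 17.7% and 20.9%, and Itga6 8.14%, 8.75% and 7.39% on days 3, 7 and 10. On each day Itgb1 ranked first among receptors and Itga5 second, without overlap. On day 10 they stood at 356 ± 1.42 and 83.6 ± 10.9 CPM per kilobase, ahead of Dag1 at 49.4 ± 6.26, Itgav at 48.3 ± 10.8, Itga8 at 45.2 ± 12.6 and Itgb5 at 40.6 ± 0.533, each of which overlapped the next in this order.

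**Figure D4:**
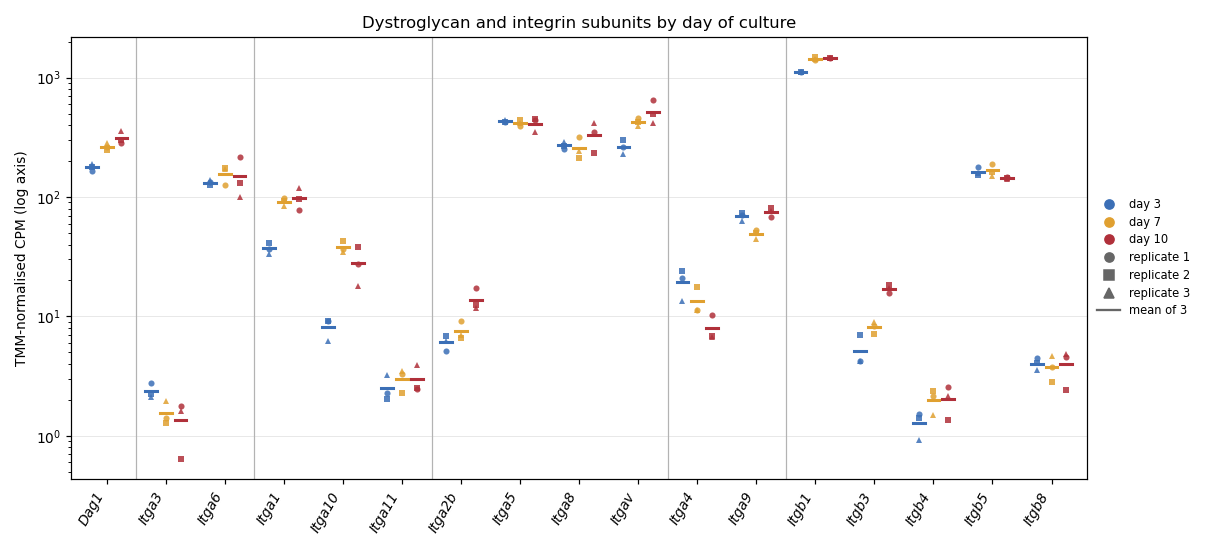
TMM-normalised CPM (log axis) of the 17 receptors with a day mean of at least 1 CPM; colours give the day, symbols the replicate and bars the mean of 3 libraries. Itga1, Itga10 and Itgb3 are higher on day 10 than on day 3, Itga4 is lower, and Itga5, Itga6 and Itga8 overlap across days.

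Itga4 and Itga9 form a subfamily that binds fibronectin, VCAM1 and tenascin. Itga4 (Entrez 16401, chromosome 2, 79255426 to 79333114) had 21.0, 23.8 and 13.4 CPM on day 3, 11.2, 17.5 and 11.3 on day 7 and 10.3, 6.92 and 6.70 on day 10. All day 10 libraries were below all others (log2 change -1.29, SE 0.27, edgeR adjusted p = 0.00263). Its gene model overlaps that of Cerkl, which averaged 1.18 CPM on day 10 and 0.0795 CPM on day 3. Itga9 averaged 69.2 ± 5.43 CPM (day 3), 49.3 ± 4.32 CPM (day 7) and 75.2 ± 6.67 CPM (day 10). It was lowest on day 7, below every library of the other days, and day 10 over day 3 was not called (0.12 ± 0.10 SE, adjusted p = 0.305).

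The leukocyte integrins were all under 1 CPM on average. Itgb2, the beta subunit of leukocytes, had 37, 20 and 6 counts on days 3, 7 and 10 and fell (log2 change -2.57, SE 0.76, edgeR adjusted p = 0.0153), but the call was lost without both day 3 replicate 2 and day 10 replicate 3 (adjusted p = 0.107) and without day 3 replicate 3 (adjusted p = 0.0529). Itgae, a T cell subunit that binds E-cadherin, had 42, 25 and 6 counts and fell (log2 change -2.74, SE 0.69, edgeR adjusted p = 0.00654), and without those same 2 libraries its adjusted p was 0.0604. Summed leukocyte markers (8 genes, none at 0 in all libraries of a day) were lower on day 10 too, at 5.52 to 8.59 CPM (day 3), 3.29 to 7.40 (day 7) and 1.55 to 3.27 (day 10), and their part was not tested. The largest of them on day 3 was Coro1a, which averaged 3.50, 2.05 and 0.688 CPM on days 3, 7 and 10. Against day 3, Coro1a and Laptm5 were called lower on day 10, and Cd53 and Fcer1g were not called. Fcer1g averaged 0.904, 1.41 and 0.913 CPM. The other leukocyte markers were not tested. Haspin, whose gene span lies within that of Itgae, averaged 4.91 CPM on day 10 and 14.6 CPM on day 3. Whether their exons overlap was not checked, and if so, reads may have been counted for either gene where counting ignored strand. Itgal, which pairs with Itgb2 on leukocytes, had 26, 49 and 70 counts and was called higher (log2 change 1.38, SE 0.49, edgeR adjusted p = 0.0342), against the direction of Itgb2. That call was lost in 7 of the 17 alternative fits that tested the gene, among them those without any 1 of the day 3 libraries, day 10 replicate 1 or day 10 replicate 3, with an adjusted p of up to 0.194. Itgam had 30, 21 and 18 counts, Itgax 9, 0 and 2, Itgad 2, 3 and 10, and Itgb7 16, 24 and 18 on days 3, 7 and 10.

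Summed per kilobase over all members of a role, ligands came to 682 ± 15.3 on day 3, 1029 ± 104 on day 7 and 1353 ± 228 on day 10 CPM per kilobase (SD, n = 3 each). Receptors came to 528 ± 0.899 on day 3, 642 ± 8.15 on day 7 and 668 ± 17.3 on day 10. Itgb1 alone gave 273, 352 and 356 CPM per kilobase of the receptor sum on days 3, 7 and 10. Nid1 gave 119, 272 and 390 of the ligand sum. For ligands, all day 10 libraries were above all day 7 libraries and these above day 3, and so for receptors. The ratio of the ligand sum to the receptor sum was 1.29 ± 0.0269 on day 3, 1.60 ± 0.181 on day 7 and 2.03 ± 0.375 on day 10. Its day 10 values ran from 1.72 to 2.45, with the highest in replicate 3, and overlapped the day 7 values of 1.40 to 1.73, while those of day 3 ran from 1.27 to 1.32, below all others. Without division by length, the ratios were 2.20, 2.74 and 3.39 on days 3, 7 and 10.

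**Figure D5:**
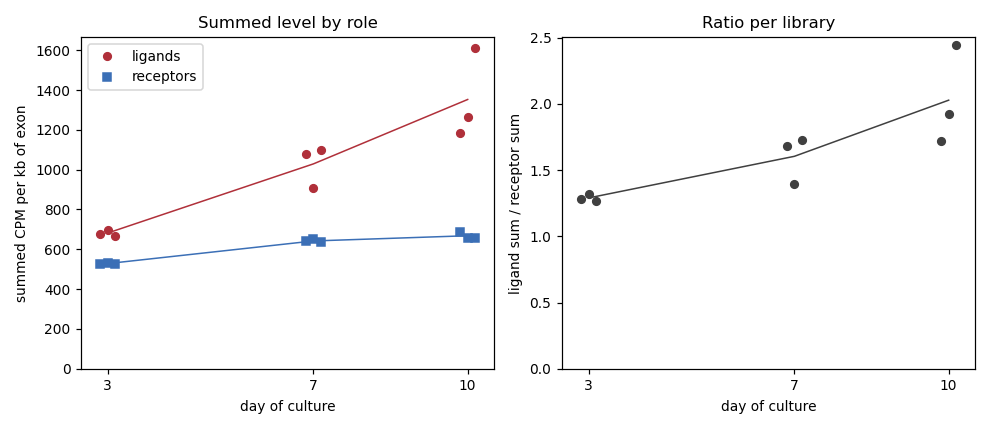
Left, summed CPM per kilobase of exon of the 15 ligands (circles) and 27 receptors (squares) against day of culture; right, the ratio of the 2 sums in each library, with lines through the means of 3. The ligand sum averages 682 on day 3 and 1353 on day 10, and the receptor sum 528 and 668.

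Most of these differences were present by day 7. For day 7 over day 3, 6 of 14 tested ligands rose and 1 fell, and 7 of 22 tested receptors rose and 1 fell, against 22.7% higher and 19.0% lower among all tested genes. The median log2 change was 0.68 over tested ligands and 0.29 over tested receptors. The largest of these were Lamc3 (6.33 ± 0.33 SE, edgeR adjusted p = 1.98e-06), Lama3 (2.75 ± 0.76, adjusted p = 0.0165), Lama2 (2.54 ± 0.12, adjusted p = 6.61e-07) and Itga10 (2.20 ± 0.26, adjusted p = 0.000184). Lamb2, Nid1 and Lamc1 rose by 1.75, 1.20 and 0.69 on the log2 scale, and Agrn fell by 0.65. Among receptors, Itga1, Itga7, Itgav, Itgb3, Dag1 and Itgb1 rose by 1.30, 1.03, 0.70, 0.66, 0.57 and 0.37, and Itga9 fell by 0.49. The call for Itgb3 was lost without day 3 replicate 1, day 3 replicate 3, day 7 replicate 1 or day 7 replicate 3 (adjusted p = 0.0646 to 0.0914). The call for Itga7 was lost in 8 of the 17 alternatives that tested it, among them those without any 1 of the day 3 libraries, day 7 replicate 1 or day 7 replicate 3 (adjusted p up to 0.115). That for Lama3 was lost when day 3 replicate 2 and day 10 replicate 3 were both left out (adjusted p = 0.0581). Hspg2 missed the threshold (0.66 ± 0.24 SE, adjusted p = 0.0517) but passed it in 8 of 18 alternatives, among them those without day 7 replicate 2, day 10 replicate 1 or day 10 replicate 3 (adjusted p down to 0.00423). Lower calls were gained for Itga4 without day 3 replicate 3 or day 7 replicate 2 (adjusted p = 0.0398 and 0.0449), for Lama1 without day 7 replicate 2 (0.0434) and for Itgae without day 7 replicate 3 (0.0246), and a higher one for Lamb1 without day 10 replicate 3 (0.0462).

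For day 10 over day 7, 3 ligands and 3 receptors rose and none fell, against 4.41% higher and 4.10% lower among all tested genes, and the median log2 change was 0.34 over tested ligands and 0.02 over tested receptors. At an unadjusted p under 0.05, 6 of 14 ligands and 7 of 22 receptors differed, against 25.4% of all tested genes, and the DESeq2 test called Agrn and Itga4 lower. Lama4 was called lower without day 10 replicate 3 (-0.35, edgeR adjusted p = 0.0328). Lamc3 rose by 1.50 ± 0.22 SE (edgeR adjusted p = 0.00723) and Lama2 by 0.86 ± 0.11 (adjusted p = 0.00376). Nid1 rose by 0.52 ± 0.10 (adjusted p = 0.0144), a call lost without day 7 replicate 2 (adjusted p = 0.0659) and with only these 2 days in the fit (adjusted p = 0.0716). Itgb3 rose by 1.07 ± 0.19 (adjusted p = 0.0121), lost without day 7 replicate 2 (adjusted p = 0.0571), and Itga2b by 0.87 ± 0.19 (adjusted p = 0.0242), lost in 4 of 18 alternatives, those without day 7 replicate 2, day 7 replicate 3 or day 10 replicate 1 and that with only these 2 days (adjusted p = 0.0501 to 0.0994). Over all tested genes, 659 were called higher for day 10 over day 7 in the fit to all 9 libraries. That number was 144 without day 7 replicate 2 and 177 with only these 2 days. It was 323 without day 7 replicate 3 and 600 without day 10 replicate 1. Itga9 rose by 0.61 ± 0.10 (adjusted p = 0.00843), after its fall on day 7. The comparisons share libraries, so their values are given side by side and were not correlated. Of the 9 ligands called for day 10 over day 3, 7 were called for day 7 over day 3, and 3 (Lama2, Lamc3 and Nid1) for both steps. Of the 12 such receptors, 7 were called for day 7 over day 3, and 1, Itgb3, for both steps. The matching shares over all genes called for day 10 over day 3 were not computed. These counts therefore show nothing particular to the members.

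Genes that act beside these ligands and receptors were read from 4 lists, each to be set against the 29.5% higher and 27.2% lower among all tested genes for day 10 over day 3. Among other basement membrane components, 15 of 23 tested genes were higher on day 10 than on day 3 and 3 were lower, with a median log2 change of 1.74. Fbln2, fibulin 2, which binds nidogens and laminins, had 478, 561 and 1133 CPM on day 10, against 9.02, 12.6 and 14.5 CPM on day 3 (log2 change 5.91, SE 0.42, edgeR adjusted p = 4.24e-06). Fbln1, fibulin 1, had 44.9, 44.2 and 21.9 CPM on day 10, against 138, 126 and 127 CPM on day 3 (log2 change -1.82, SE 0.29, edgeR adjusted p = 0.000551). The type IV collagen chains Col4a1, Col4a2, Col4a3, Col4a4 and Col4a5 were among those that rose (the gene models of Col4a1 and Col4a2 overlap), and Fras1 and Frem2, which form an epithelial anchoring complex, among those that fell.

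On the inner side of the membrane, the dystrophin-glycoprotein complex had 8 of 12 tested genes higher on day 10 than on day 3 and 3 lower, with a median log2 change of 0.77, where 29.5% of all tested genes were higher and 27.2% lower. Sntb1, a syntrophin adaptor, averaged 31.1 ± 3.65 CPM on day 10, against 4.24 ± 0.391 CPM on day 3 (log2 change 2.87, SE 0.13, edgeR adjusted p = 1.83e-07). Dmd, dystrophin itself, averaged 20.6 ± 1.73 CPM on day 10, against 36.6 ± 4.03 CPM on day 3 (log2 change -0.83, SE 0.13, edgeR adjusted p = 0.000438), and Utrn, the related utrophin, was among those that rose. The sarcoglycans Sgcb, Sgcd and Sgce rose, and the dystrobrevins Dtna and Dtnb fell. Of the 16 genes for the sugars that let dystroglycan bind laminin, 9 rose and 7 were not called, beside the same 29.5% and 27.2%, with a median log2 change of 0.25. Gmppb, which makes the mannose donor, averaged 37.8 ± 4.20 CPM on day 10, against 21.0 ± 1.06 CPM on day 3 (log2 change 0.85, SE 0.09, edgeR adjusted p = 4.72e-05).

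The adhesion plaque, which ties integrins to actin, had 8 of 23 tested genes higher and 4 lower, with a median log2 change of 0.11, beside 29.5% higher and 27.2% lower among all tested genes. Tns1, the actin linker tensin 1, averaged 264 ± 6.72 CPM on day 10, against 101 ± 7.41 CPM on day 3 (log2 change 1.39, SE 0.08, edgeR adjusted p = 6.32e-07). Zyx, the plaque protein zyxin, averaged 238 ± 36.6 CPM on day 10, against 317 ± 19.3 CPM on day 3 (log2 change -0.42, SE 0.12, edgeR adjusted p = 0.0134). Ilk, Parva and Fermt2 rose, while Ptk2 (focal adhesion kinase), Src and Fermt3, a kindlin of blood cells, fell.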

How the data were processed

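Poly(A) RNA was sequenced from 9 libraries (Illumina TruSeq kit, per the labels' protocols). The authors deposited 1 table of raw read counts per Entrez gene, which, per the submitters' processing notes, featureCounts made on mm10. How reads were aligned, and whether strand and multiple mapping were considered, is not given in the sources used here. Overlaps named here are between whole gene spans, and overlap of exons was not checked. Where exons do overlap, reads may have been counted for either gene. Of 27179 IDs, 25275 were named from RefSeq (GRCm38.p6). Counts were filtered with filterByExpr (14940 genes kept), TMM-scaled and fitted over all 9 libraries with the robust quasi-likelihood model of edgeR 4.0.16 in R 4.3.3 (biological coefficient of variation 0.146). F tests compared days, with Benjamini-Hochberg adjustment over all 14940 genes and a threshold of 0.05. The SE is the absolute log2 change over the square root of F. Levels are TMM-normalised CPM, divided by kilobases of the union of GENCODE M21 exons to compare genes. Scripts were checked on simulated counts. Values per library are given for members called at 2-fold or more with a day mean of at least 10 CPM, or with a day mean of at least 100 CPM; from each list the largest called rise and fall at 10 CPM or more are named. Members, lists and tests were chosen with earlier results of these data known. Values of 1 member and 1 marker gene are not reported here.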

Additional observations from a re-analysis of the deposited data

How the results depend on the processing

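The tests were repeated under 18 alternatives (other scalings, filters, DESeq2 1.42.0, a replicate block, only the 2 days compared, and libraries left out). For day 10 over day 3, 17 of 21 calls held in every alternative that tested them (Itga7, Itgae, Itgal and Itgb2 did not); for day 7 over day 3, 12 of 15 (not Itga7, Itgb3 and Lama3); for day 10 over day 7, 3 of 6 (not Itga2b, Itgb3 and Nid1). No called value changed sign. Day 10 over day 3, receptors lower numbered 5 with library size alone, 1 with a filter of 1 CPM in 3 libraries and 1 once day 3 replicate 2 and day 10 replicate 3 were both left out, where ligands lower numbered 2. The 1 CPM filter left the low genes untested. DESeq2 called 1 ligand and 1 receptor lower for day 10 over day 7. Leaving out 1 library at a time gave, for day 10 over day 3, 8 ligands higher, 1 to 2 lower, 8 to 11 receptors higher and 2 to 4 lower; for day 7 over day 3, 6 to 8, 1 to 2, 5 to 7 and 1 to 2; for day 10 over day 7, 2 to 3, 0 to 1, 1 to 3 and 0. Over all tested genes, those fits gave 3816 to 4387 higher and 3512 to 4072 lower for day 10 over day 3. For day 7 over day 3 they gave 2636 to 3766 and 2142 to 3385. For day 10 over day 7 they gave 144 to 759 and 160 to 792. Replicate numbers were not taken as pairs, as no label says that a number marks a shared culture. The sample descriptions do number the 3 days of each replicate in sequence, without saying what that order marks. Of 9 same-numbered pairs of libraries, 5 had deviations correlated over 0.1 and 7 over 0 (-0.0694 to 0.433, against -0.356 to 0.221 for different numbers). With the replicate block, 8 ligands and 8 receptors were higher and 1 and 4 lower for day 10 over day 3, and ligands lower for day 7 over day 3 numbered 2; it gained Itga3 lower (-0.88, adjusted p = 0.0398) and lost Itgal (adjusted p = 0.0594) for the longer interval, and gained Lama1 lower (-0.59, adjusted p = 0.0255) and Hspg2 higher (0.63, adjusted p = 0.0307) for the shorter one. The cause was not tested. The ratio of ligand to receptor sums was 2.20, 2.74 and 3.39 without division by length on days 3, 7 and 10. With the longest transcript, a length chosen after seeing the data, it was 1.40, 1.71 and 2.16 on those days. Leaving out 1 library at the reported length, it was 1.28 to 1.30, 1.54 to 1.71 and 1.82 to 2.18.

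Some uncalled log2 changes turned sign. For day 10 over day 3, without both libraries named above, Itga11 came to -0.14, Itga5 to 0.0345 and Nid2 to -0.0070. Leaving out 1 library, the range was -0.0060 to 0.45 for Itga11, -0.93 to 0.35 for Itga2, -0.12 to 0.0442 for Itga5, -0.20 to 0.40 for Itga6, -0.20 to 0.24 for Itgb8, -0.31 to 0.0436 for Lama4 and -0.0761 to 0.24 for Nid2. For day 10 over day 7, Itga1 came to -0.0692 without both libraries and Itgb1 to -0.0324 with library size alone, and leaving out 1 library gave -0.0693 to 0.24 for Itga1, -0.0209 to 0.42 for Itga7, -0.0022 to 0.0415 for Itgb1 and -0.40 to 1.02 for Lama3. The causes were not tested. With library size alone, all tested genes split into 3642 higher and 4722 lower for day 10 over day 3, against 4408 and 4065 with TMM. Genes under 1 CPM rest on few counts per library.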
